A study of Mus musculus with 8 samples.

Results

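The genes described here code for mitochondrial ribosomal proteins and were read in mouse muscle after knockdown of *Mytho* (MYTHO-KD). They were chosen by name alone, as every gene symbol of the deposited table that starts with Mrpl or Mrps followed by a digit, with 1 probe set kept for each symbol. This gave 77 genes among 22206 probe sets, 48 with Mrpl symbols (large subunit) and 29 with Mrps symbols (small subunit). Each gene had 1 probe set, and 2 of them lay in table entries that also name another gene, *Mrpl53* with *Ccdc142* and *Mrps6* with *Slc5a3*, so that these genes cannot be separated. The samples were gastrocnemius (GAS) muscle of wild-type male C57/Bl6j mice, 14 weeks old, taken 3 weeks after intramuscular injection of adeno-associated virus (AAV). In each of 4 animals, here called A to D, 1 leg received AAV sh-RNA MYTHO, a virus that carries a short hairpin RNA against *Mytho*, and the opposite leg received AAV sh-RNA scrmb, which carries a scrambled hairpin, giving 4 arrays for each group. According to the methods of the study, both hairpins were driven by the U6 promoter, which is active in most cell types, and the virus was of serotype 1, which enters muscle cells. The biopsy held all cell types of the muscle, and there was no uninjected leg, so that the effect of the virus itself is shared by both groups.

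Mitochondria keep a small genome of their own, and the proteins it encodes, all of them subunits of the respiratory chain and ATP synthase, are made by a dedicated ribosome inside the organelle. The RNAs of this mitoribosome come from the mitochondrial genome, but its proteins are all encoded in the nucleus, translated in the cytosol and imported. The small subunit binds the messenger RNA and decodes it, and the large subunit forms the peptide bond and feeds the new chain into the inner membrane. Part of the proteins descend from the bacterial ribosome and part were added in the mitochondrial lineage. Skeletal muscle, and its slow oxidative fibres above all, is rich in mitochondria and depends on this ribosome for its oxidative enzymes.

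The targeted gene was read first. *Mytho*, listed as D230025D16Rik, had log2 signals of 11.35, 11.31, 10.78 and 11.05 in the scrmb legs of animals A to D and of 8.16, 8.20, 8.80 and 8.08 in the MYTHO legs. Every MYTHO leg lay below every scrmb leg. The log2 fold change (MYTHO minus scrmb, as for every change below) was -2.81 with a standard error (SE) of 0.21, which left 14.2% of the scrmb signal (limma adjusted p = 0.00044, and p = 0.0286 in an exact two-sided permutation test, the lowest that 4 against 4 unpaired arrays allow). The 70 relabellings of that test did not keep the legs of an animal paired. With the animal as a replicate block in limma, the adjusted p was 0.0156.

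The arrays were alike in their overall level, with median log2 signals of 6.39 to 6.47 and correlations across probe sets of 0.981 to 0.986 within groups and 0.972 to 0.988 between groups. Markers of slow fibres set some legs apart. The mean log2 signal of 8 slow-fibre genes was 13.70 in the scrmb leg of animal A against 11.61 to 11.94 in the other scrmb legs, and 11.68 in the MYTHO leg of animal D against 14.43 to 14.88 in the other MYTHO legs. Results for the mitochondrial ribosomal protein genes are therefore also given without these arrays.

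No mitochondrial ribosomal protein gene passed an adjusted p of 0.05 in either direction. The lowest adjusted p among them was 0.213, and over the whole table only 0.00901% of probe sets passed with a higher and 0.018% with a lower signal. At an unadjusted p under 0.05, 5 of the 77 genes were higher in MYTHO muscle, *Mrpl38*, *Mrpl42*, *Mrpl10*, *Mrpl9* and *Mrps24*, and 1 was lower, *Mrpl45*. The 5 higher genes were 6.49% of the group, where 4.81% of all probe sets were higher at this threshold, and the 1 lower gene was 1.30%, where 7.58% of all probe sets were lower. Over the upper 50% of probe sets by signal, 6.28% were higher and 8.62% lower, so the share of higher genes was near that of probe sets of like signal. Fold changes were small throughout. They ran from -0.57 to 0.69 on the log2 scale, and 51 genes moved by less than 0.25. The direction was uneven, since 59 genes had a fold change above 0 and the median was 0.165, against -0.005 over all probe sets and 0.02 over the upper 50% of probe sets by signal, which held 72 of the 77 genes. In bulk muscle, a lower or higher signal can come from the number of cells of a type or from the RNA in each cell, and these cannot be told apart.

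**Figure D1:**
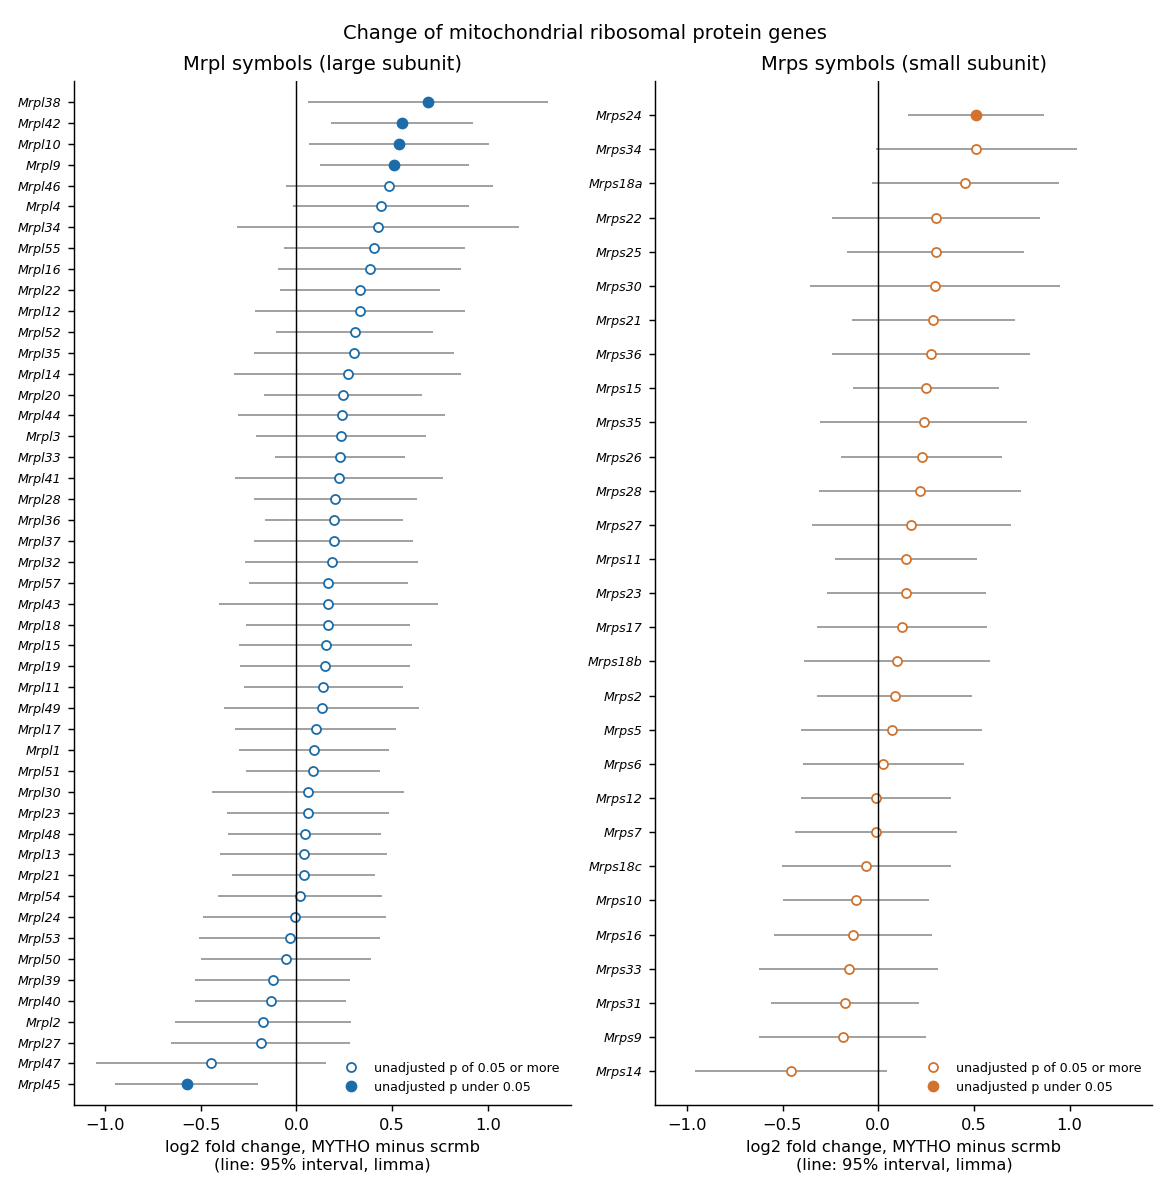
Log2 fold change (MYTHO minus scrmb) of each of the 48 Mrpl genes (left) and 29 Mrps genes (right), ordered by size, with 95% intervals from limma as lines (n = 4 arrays a group). Most points lie to the right of 0 but their intervals cross it, and filled points mark the 5 higher genes and the 1 lower gene at an unadjusted p under 0.05.

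The arrays had the precision to bound most of these changes. The median SE was 0.20, and for 71 genes the 95% interval of the fold change lay within 2-fold in either direction. For the remaining 6 it reached past 2-fold, in the upward direction for *Mrpl38*, *Mrpl34*, *Mrps34*, *Mrpl46* and *Mrpl10*, and in the downward direction for *Mrpl47*. The SD of the log2 signal among the 4 legs of a group had a median of 0.26 in either group and ran from 0.017 to 0.72 from gene to gene. Log2 signals lay between 5.19 and 16.43 and none reached the ceiling of the scale at 19.93.

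The large subunit holds the catalytic centre. Its symbols make up 48 of the 77 genes and 5 of the 6 past the unadjusted threshold. Among the 48 Mrpl genes, 39 had a fold change above 0 (81.2%, where 49.0% of all probe sets did), and the median log2 fold change was 0.17. At an unadjusted p under 0.05, 4 (8.33%) were higher and 1 (2.08%) was lower, beside 4.81% and 7.58% of all probe sets.

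*Mrpl42*, a protein of the large subunit with no bacterial counterpart, had log2 signals of 15.81, 15.61, 15.65 and 15.97 in the scrmb legs of animals A to D and of 16.15, 16.43, 16.40 and 16.26 in the MYTHO legs. All MYTHO legs lay above all scrmb legs, and animals B and C had the wider gaps. The log2 fold change was 0.55 ± 0.17 (SE), or 1.46-fold, with an unadjusted p of 0.00725 and an adjusted p of 0.225.

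*Mrpl9*, the counterpart of bacterial L9, had log2 signals of 8.07, 8.18, 8.35 and 8.39 in the scrmb legs and of 8.48, 8.94, 8.90 and 8.72 in the MYTHO legs. The groups did not overlap, although the lowest MYTHO leg, that of animal A, lay close to the highest scrmb leg, that of animal D. Its log2 fold change was 0.51 ± 0.18 (SE), or 1.43-fold (unadjusted p = 0.014, adjusted p = 0.273).

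*Mrpl10* codes for a protein at the base of the flexible stalk that recruits translation factors to the ribosome. Its log2 signals were 7.72, 7.19, 6.85 and 7.07 in the scrmb legs and 7.81, 7.98, 7.47 and 7.72 in the MYTHO legs. All 4 animals had the higher signal in the MYTHO leg, but the groups overlapped, because the scrmb leg of animal A lay within the range of the MYTHO legs. This gave a log2 fold change of 0.54 ± 0.21 (SE), or 1.45-fold (unadjusted p = 0.028, adjusted p = 0.338). The unadjusted p lay between 0.053 and 0.087 when the MYTHO array of animal A or B, or the scrmb array of animal B, C or D, was left out. The other genes of the stalk, *Mrpl12* and *Mrpl11*, had log2 fold changes of 0.33 and 0.14, with unadjusted p of 0.212 and 0.476.

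*Mrpl38* had the highest fold change of all 77 genes and also one of the widest spreads. It codes for a protein of the central protuberance, the part of the large subunit that faces the small one. Its log2 signals were 9.83, 10.45, 9.44 and 10.82 in the scrmb legs and 10.43, 11.15, 10.91 and 10.80 in the MYTHO legs. The groups overlapped, since the scrmb leg of animal D matched its MYTHO leg and the difference came from the other 3 animals, from animal C most of all. The log2 fold change was 0.69 ± 0.29 (SE), or 1.61-fold (unadjusted p = 0.034, adjusted p = 0.360). The fold change was 0.46 without the scrmb array of animal C (unadjusted p = 0.115), and the p also exceeded the threshold without the MYTHO array of animal B, C or D or the scrmb array of animal A, at 0.057 to 0.093. Over the 9 measured genes of the central protuberance the median was 0.165, with 6 above 0. This list counts *Mrpl58*, which the table names *Ict1* and which is therefore not among the 77.

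*Mrpl45* went the other way. Its protein lies where the new chain leaves the ribosome and anchors the mitoribosome to the inner membrane. The log2 signal was 12.56, 12.31, 12.44 and 12.30 in the scrmb legs and 11.73, 11.91, 12.04 and 11.64 in the MYTHO legs. All MYTHO legs lay below all scrmb legs, and every animal had the lower signal in the MYTHO leg, by 0.40 to 0.83. The log2 fold change was -0.57 ± 0.17 (SE), which is 0.672 times the scrmb signal (unadjusted p = 0.00594, adjusted p = 0.213), and this was the lowest p of the 77 genes. The 6 genes listed around the exit tunnel had a median of 0.03, and *Mrpl45* was the only 1 of them at an unadjusted p under 0.05.

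Of the remaining large-subunit genes, *Mrpl33* had non-overlapping groups with a small change. Its log2 signals were 14.59, 14.59, 14.56 and 14.60 in the scrmb legs and 14.89, 14.73, 14.76 and 14.87 in the MYTHO legs. All MYTHO legs were higher, and the scrmb legs had the smallest SD of any group of the 77 genes, 0.017. limma moderates so small a spread with that of all probe sets, and the fold change of 0.23 ± 0.16 (SE) had an unadjusted p of 0.170. *Mrpl46*, which lies at the central protuberance, was higher in the MYTHO leg of all 4 animals by 0.26 to 0.81, with a log2 fold change of 0.49 and an unadjusted p of 0.074 (0.028 with the animal as a replicate block). At the low end, *Mrpl47*, counterpart of bacterial L29 beside the exit tunnel, had a fold change of -0.45 with an unadjusted p of 0.132. Its legs scattered widely, from a difference of -1.56 in animal A to 0.50 in animal B, and the fold change was -0.22 without the scrmb array of animal A. *Mrpl27*, counterpart of bacterial L27, had a fold change of only -0.19 but was lower in the MYTHO leg of all 4 animals, by 0.07 to 0.30, and *Mrpl2*, a core protein of the catalytic centre, had a fold change of -0.18. With single arrays left out, *Mrpl27* ran from -0.308 to -0.0417 and *Mrpl2* from -0.3175 to -0.0575.

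**Figure D2:**
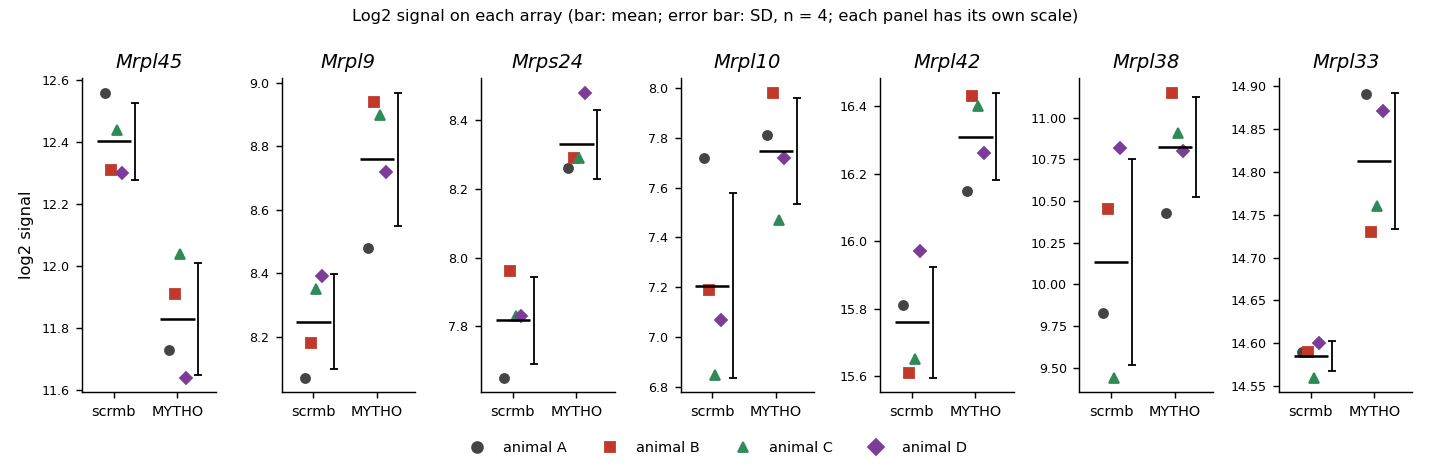
Log2 signal of 7 mitochondrial ribosomal protein genes on each array, with the animal given by colour and shape, the mean as a bar and the SD (n = 4) as an error bar, each panel on its own scale. The groups do not overlap for *Mrpl45*, *Mrpl9*, *Mrps24*, *Mrpl42* and *Mrpl33*, and they overlap for *Mrpl10* and *Mrpl38*.

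In the small subunit, 20 of 29 genes (69.0%) had a fold change above 0, and the median log2 fold change was 0.15. At an unadjusted p under 0.05, 1 gene (3.45%) was higher and none was lower, beside 4.81% and 7.58% of all probe sets. The 1 higher gene was *Mrps24*, counterpart of bacterial S3, which lines the entry path of the messenger RNA. Its log2 signals were 7.65, 7.96, 7.83 and 7.83 in the scrmb legs and 8.26, 8.29, 8.29 and 8.48 in the MYTHO legs. Every MYTHO leg lay above every scrmb leg. The log2 fold change was 0.51 ± 0.16 (SE), or 1.43-fold (unadjusted p = 0.00869, adjusted p = 0.237).

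*Mrps34*, a mitochondria-specific protein of the small subunit, had as large a fold change, 0.51, but with an SE of 0.24 and an unadjusted p of 0.055. Its legs did not move together. The MYTHO leg was higher by 1.22 and 0.95 in animals A and C, by 0.08 in animal B, and lower by 0.20 in animal D. At the other end, *Mrps14*, counterpart of bacterial S14, had a fold change of -0.46 (unadjusted p = 0.072), with the MYTHO leg lower in animals A, B and C, by 1.10 in C, and 0.13 higher in animal D. Without the MYTHO array of animal C it was -0.26. The next lowest, *Mrps9*, *Mrps31* and *Mrps33*, had fold changes of -0.19, -0.17 and -0.16, with unadjusted p between 0.351 and 0.485. With single arrays left out, they ran from -0.2875 to -0.0775, from -0.24 to -0.08 and from -0.2675 to -0.0175.

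A few symbols do not say where the protein sits. *Mrps30* and *Mrps18a* carry small-subunit names, but their proteins belong to the large subunit, and the product of *Mrps36* is a component of the 2-oxoglutarate dehydrogenase complex rather than of the ribosome. Their log2 fold changes were 0.30 (*Mrps30*, unadjusted p = 0.340), 0.46 (*Mrps18a*, unadjusted p = 0.065) and 0.28 (*Mrps36*, unadjusted p = 0.269). The legs of *Mrps30* differed by -0.11, 0.41, 0.91 and -0.02 in animals A to D, and its fold change was 0.076 without the scrmb array of animal C and 0.085 without the MYTHO array of animal B. *Mrps18a* was higher in the MYTHO leg of 3 animals, by 0.32 to 1.01, and lay 0.05 lower in animal D, and its fold change was 0.25 without the scrmb array of animal C. That of *Mrps36* was 0.18 without the scrmb array of animal C and 0.49 without that of animal A. Its unadjusted p was under 0.05 in 1 of 14 settings.

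Large and small subunit were then set side by side. The median log2 fold change of the Mrpl genes exceeded that of the Mrps genes by 0.02. Taken within each animal, the median difference between the legs was higher for the Mrpl than for the Mrps genes by 0.14 in animal A, 0.12 in B and 0.125 in C, and lower by 0.025 in D, which gives 0.09 ± 0.077 (SD, n = 4). With *Mrps30* and *Mrps18a* moved to the large subunit and *Mrps36* left out, the medians were 0.18 over 50 large-subunit genes and 0.11 over 26 small-subunit genes. Within animals A to D the large subunit then differed from the small one by 0.105, 0.15, 0.185 and -0.035, or 0.101 ± 0.097 (SD, n = 4). The genes were also divided by origin. The 46 with a bacterial counterpart had a median of 0.15 and the 30 mitochondria-specific ones a median of 0.17. Within the small subunit the 16 genes with a bacterial counterpart had a median of 0.05, with 9 above 0, and the 10 mitochondria-specific genes a median of 0.20, with 8 above 0. In the large subunit the order was the opposite, 0.19 over 30 genes and 0.17 over 20. None of these medians was tested, and the genes of a subunit are not replicates of a condition.

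The upward lean differed from animal to animal. In animal B, 67 of the 77 genes were higher in the MYTHO leg, with a median difference of 0.36. In animal C the count was 46 with a median of 0.12, in animal A it was 41 with a median of 0.06, and in animal D it was 38 with a median of 0. The mean log2 signal over the 77 genes was 9.44, 9.31, 9.18 and 9.44 in the scrmb legs and 9.45, 9.69, 9.34 and 9.48 in the MYTHO legs. The groups thus overlapped, and the MYTHO leg of animal B stood highest, with the scrmb leg of animal C lowest. The group means were 9.34 ± 0.13 and 9.49 ± 0.15 (SD, n = 4). Without the MYTHO array of animal B the median fold change of the 77 genes was 0.073 with 3 genes higher and 3 lower, and without the scrmb array of animal C it was 0.104 with 3 higher and 1 lower. Without the arrays that stood apart in slow-fibre markers it was 0.173 (scrmb leg of animal A, 6 higher and 1 lower) and 0.182 (MYTHO leg of animal D, 4 higher and 1 lower). The count of higher genes reached 9 without the MYTHO array of animal C and also without the scrmb array of animal D, with 1 and 2 lower.

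**Figure D3:**
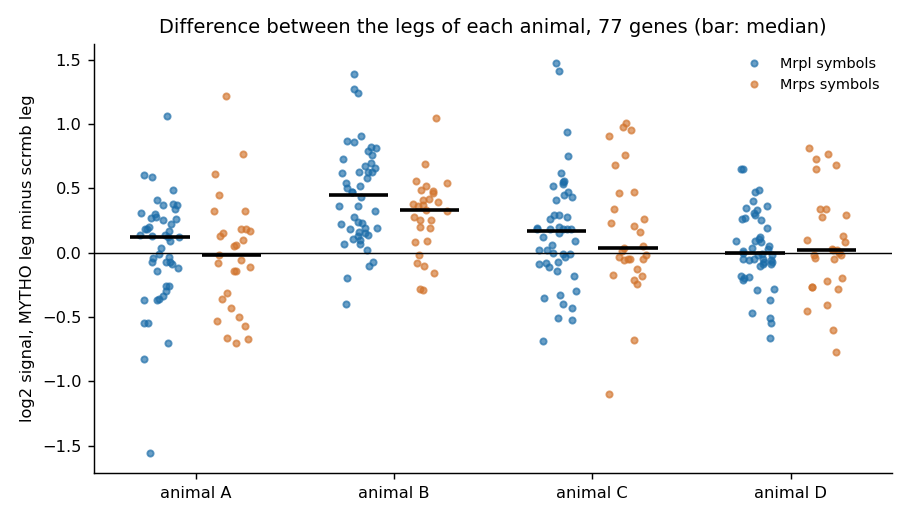
Difference in log2 signal between the MYTHO leg and the scrmb leg of each animal for the 48 Mrpl genes (blue) and 29 Mrps genes (orange), with 1 point a gene and the median of each set as a bar. Only in animal B do both bars stand well above 0, and in animal D both lie within 0.02 of it.

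Across single genes, 15 (19.5%) were higher in the MYTHO leg of all 4 animals, as were 8.94% of all probe sets, and 2 (2.60%), *Mrpl45* and *Mrpl27*, were lower in all 4, as were 10.8% of all probe sets. Groups without overlap were found for 4 higher genes (*Mrpl33*, *Mrpl9*, *Mrps24* and *Mrpl42*), 5.19% of the 77 where 2.59% of all probe sets had this pattern, and for 1 lower gene (*Mrpl45*), 1.30% where the background was 3.87%. With the animal as a replicate block, 6 genes were higher at an unadjusted p under 0.05, *Mrpl46* being the one added, against a background of 4.94%, and 1 was lower, against 7.66%. The lowest adjusted p was then 0.262.

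Mitoribosomal proteins that carry other names were read beside them. None of the 5 reached an unadjusted p of 0.05. *Dap3*, a GTP-binding protein of the small subunit, and *Chchd1* had fold changes of -0.05 and -0.08, *Aurkaip1* of -0.25, *Ptcd3* of 0.24 and *Gadd45gip1* of 0.37, the last with an unadjusted p of 0.098. With single arrays left out, *Aurkaip1* ran from -0.37 to -0.14, *Ptcd3* from 0.17 to 0.33 and *Gadd45gip1* from 0.27 to 0.49.

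Translation factors and other proteins that serve the mitoribosome were read in the same way. Of 15 measured translation factors, 3 were higher and none lower at an unadjusted p under 0.05, beside 4.81% and 7.58% of all probe sets, and the median was 0.165. With the animal as a replicate block, 2 were higher. *Tufm*, the mitochondrial elongation factor Tu that delivers aminoacyl-tRNA, had log2 signals of 8.46, 8.08, 8.35 and 9.25 in the scrmb legs and of 8.80, 9.74, 9.13 and 9.17 in the MYTHO legs. The scrmb leg of animal D was as high as the MYTHO legs, so the groups overlapped. The log2 fold change was 0.68 ± 0.27 (SE), with an unadjusted p of 0.029 and an adjusted p of 0.344. *Tsfm*, which recharges that factor with GTP, had a fold change of 0.49 (unadjusted p = 0.040), and *Mtrf1l*, a release factor, one of 0.46 (unadjusted p = 0.042).

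Mitochondrial aminoacyl-tRNA synthetases load tRNAs with their amino acids, and the amidotransferase coded by *Gatb*, *Gatc* and *Qrsl1* corrects the charge of the glutamine tRNA. Of the 20 measured genes, 17 synthetases and these 3, 2 were higher and none lower (4.81% and 7.58% of all probe sets), with a median of 0.11. These were *Fars2*, for phenylalanine, at 0.56 (unadjusted p = 0.027) and *Pars2*, for proline, at 0.40 (unadjusted p = 0.044). With the animal as a replicate block neither passed (unadjusted p = 0.052 and 0.066), and 1 synthetase was lower, *Rars2*, for arginine, with a fold change of -0.47 (unadjusted p = 0.043, and 0.104 without the block). Of 25 genes of mitoribosome assembly and rRNA modification, 4 were higher and none lower (again beside 4.81% and 7.58% of all probe sets), also with a median of 0.11, and with the block 3 were higher. The difference between these counts and that of the mitochondrial ribosomal protein genes was not tested. *Ybey*, an endoribonuclease needed for the small subunit, had a fold change of 0.53 (unadjusted p = 0.016), *Mpv17l2*, an assembly protein of the inner membrane, one of 0.59 (unadjusted p = 0.038), *Nsun4*, an rRNA methyltransferase, one of 0.45 (unadjusted p = 0.035) and *Mettl17*, an assembly factor of the small subunit, one of 0.41 (unadjusted p = 0.037). The adjusted p of the 9 higher genes in these groups ran from 0.289 (*Ybey*) to 0.389 (*Pars2*), and their unadjusted p stayed under 0.05 in between 3 of 13 (*Pars2*) and 12 of 13 (*Ybey*) settings. Among 9 genes of mitochondrial transcription and RNA processing none was past the threshold, and the median was 0.15.

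**Figure D4:**
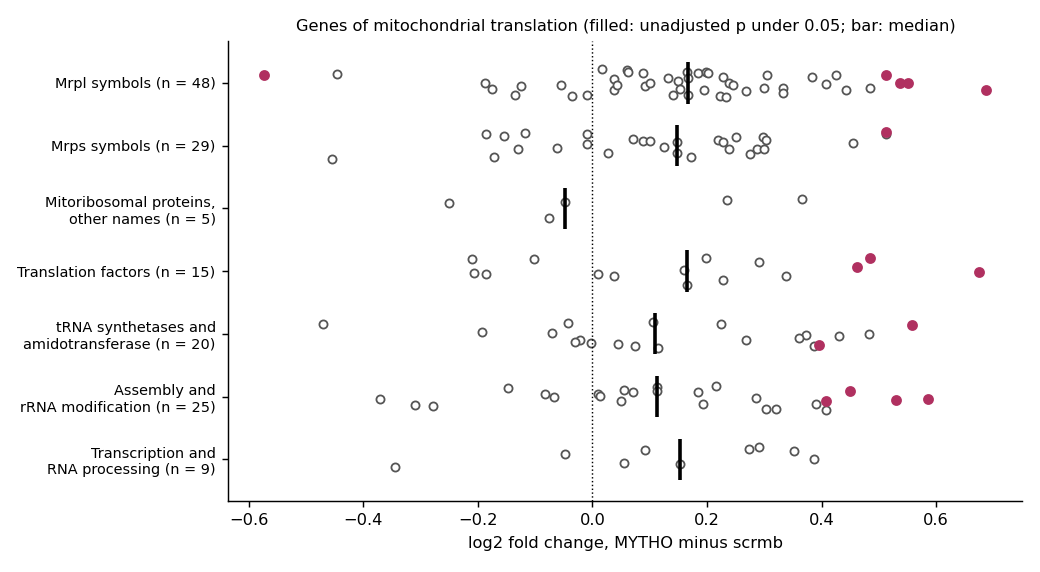
Log2 fold change (MYTHO minus scrmb) of the genes of mitochondrial translation, by group, with 1 point a gene, the median as a bar and filled points for an unadjusted p under 0.05. The medians lie between 0.11 and 0.17 except for the 5 mitoribosomal proteins under other names at -0.05, and the 1 filled point below 0 is *Mrpl45*.

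Other gene groups were read on the same arrays, and their values are given beside those of the mitoribosome. All 8 slow-fibre markers had fold changes above 0, 7 of them at an unadjusted p under 0.05, with a median of 1.59. The difference in their mean between the legs was 1.18 in animal A, 2.52 in B, 2.87 in C and 0.08 in D, while the mean difference of the 77 genes was 0.0045, 0.382, 0.159 and 0.038. Both were lower in animals A and D than in B and C. Of 37 Nduf genes of respiratory complex I, 32 (86.5%) had a fold change above 0 and 8 (21.6%, where 4.81% of all probe sets were) were higher, with a median of 0.19, and with the animal as a replicate block 5 were higher. Their differences by animal were -0.134, 0.554, 0.422 and 0.119, again highest in animal B. Of 82 cytosolic ribosomal protein genes, whose many near-identical copies make single values uncertain, 70 (85.4%) had a fold change above 0 and 11 (13.4%) were higher, with a median of 0.19. Here animal A had the largest difference, 0.335, followed by 0.229 in B, 0.204 in D and 0.074 in C. The mean of 4 endothelial markers ran from 10.27 to 10.86 in the scrmb legs and from 11.05 to 11.28 in the MYTHO legs, with no overlap. Of these, *Pecam1* and *Tek* were higher at an unadjusted p under 0.05, with fold changes of 0.45 and 0.86. Markers of macrophages, T cells, blood and adipocytes had medians of 0.12, -0.05, 0.21 and -0.04, with no gene past the unadjusted threshold. The legs of single animals differed far more in the mean of 5 adipocyte markers, by 2.43, -1.93, -0.95 and 0.66 in animals A to D, and of 3 blood markers, by -1.14, 0.29, 0.82 and 1.39. With the animal as a replicate block, *Cd68* of the macrophage markers was higher and *Cd4* of the T cell markers was lower (unadjusted p of 0.033 and 0.043). Of 5 fibroblast markers, with a median of -0.22, 2 were above 0 and 1 was lower, *Dcn*, at -0.60. Of 5 satellite cell and regeneration markers, with a median of 0.16, 4 were above 0 and 1 was higher, *Myog*, at 0.65 (with the block also *Myh3*), while *Myh8* was saturated on all arrays. Of 9 muscle fibre markers, 2 were higher, *Myh1* at 0.70 and *Mb* at 0.55, and *Acta1* and *Myh4* were saturated on all arrays. The part of these groups in the values of the mitochondrial ribosomal protein genes was not tested.

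**Figure D5:**
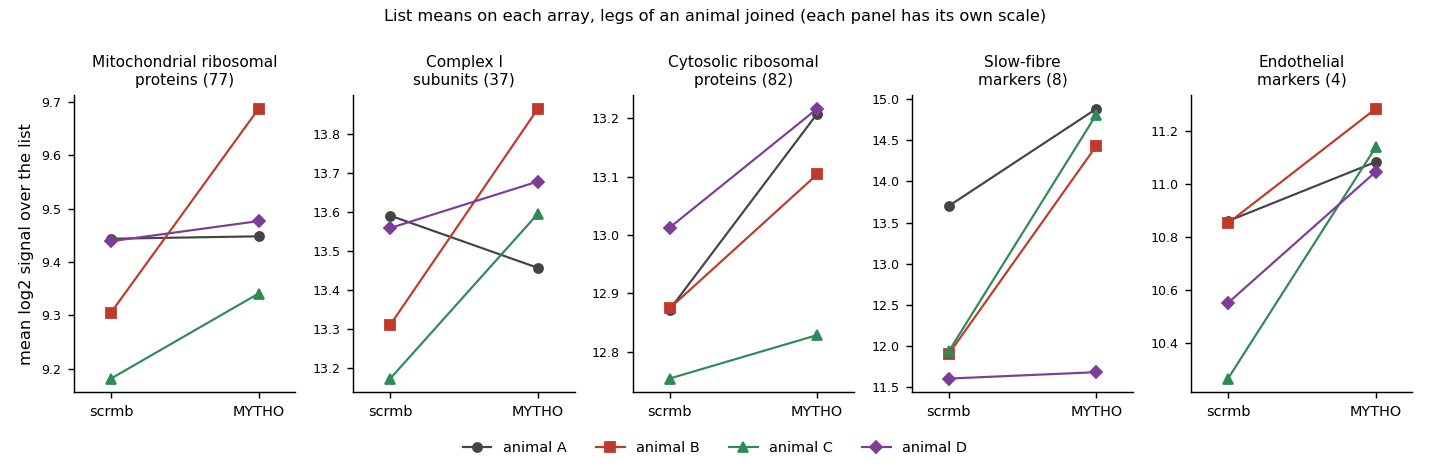
Mean log2 signal of 5 gene groups on each array, with the scrmb and MYTHO legs of each animal joined and each panel on its own scale. The lines of the 77 mitochondrial ribosomal protein genes rise steeply in animal B and are nearly flat in animals A and D, while those of the endothelial markers rise in all 4 animals.

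The genes lie on 17 chromosomes. Chromosome 11 holds the most, 10, with a median of 0.33. Among them are *Mrpl10*, *Mrps24* and *Mrpl38*, which were higher at the unadjusted threshold, and *Mrpl45*, which was lower. The share past the threshold and the median over all probe sets of chromosome 11 were not computed, so these values have no background. In the mouse build GRCm38.p6, *Mrpl10* lies at chr11:97041582-97049213 and *Mrpl45* at chr11:97314923-97329920. They lie 265.71 kb apart on the same chromosome and had fold changes of 0.54 and -0.57. *Mrps24* lies at chr11:5703982-5707701, *Mrpl38* at chr11:116131817-116138868, *Mrpl42* at chr10:95480805-95501949 and *Mrpl9* at chr3:94443154-94448708.

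Promoter sequences of RefSeq on GRCm38.p6, each from 250 bases before to 50 bases after a transcription start, were matched for 68 of the 77 genes, with 74 windows. They were rich in G and C, with a median of 58.5% against 56.3% over the 21262 windows of protein-coding genes, and none of them held TATAA between 50 and 15 bases before the start, where 4.83% of the coding windows did. Words bound by regulators of nuclear genes for mitochondria were searched on both strands, as exact matches. The NRF1 word GCGCATGC was found in 10.8% of the windows (3.51% of coding windows), the GABP word CCGGAAG in 33.8% (11.6%) and the YY1 word ATGGCGG in 17.6% (5.24%). The ERR word AAGGTCA was found in 5.41% (4.08%) and the E-box CACGTG in 9.46% (7.84%). The 7 windows with an E-box belonged to only 5 genes, because *Mrpl2* was counted with 3 windows. The 8 genes with an NRF1 word had a median log2 fold change of 0.21, with *Mrpl10* and *Mrpl9* among them, and the 60 genes without had a median of 0.15. The median was 0.27 over the 4 genes with an ERR word, 0.195 over the 5 with an E-box, 0.17 over the 13 with a YY1 word and 0.165 over the 25 with a GABP word. It was 0.14 over the genes without an ERR word and 0.15 over those without each of the other 3. No gene with an ERR word, an E-box or a GABP word was past the unadjusted threshold, and 1 with a YY1 word was higher. These differences were not tested.

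The 250 bases before the start are shown for the 5 genes past the unadjusted threshold that had a promoter window. Of the higher ones, *Mrpl10* and *Mrpl9* hold the NRF1 word, and *Mrpl42* and *Mrps24* hold none of the 5 words, as does *Mrpl45*, the lower gene. Capitals mark NRF1 words, which overlap on both strands in *Mrpl9*. The sequences run 5′ to 3′ on the strand of the gene in GRCm38.p6, the plus strand at chr11:97041332-97041581 for *Mrpl10*, chr3:94443086-94443335 for *Mrpl9* and chr11:97315466-97315715 for *Mrpl45*, and the minus strand at chr10:95501950-95502199 for *Mrpl42* and chr11:5707702-5707951 for *Mrps24*. For *Mrpl9* and *Mrpl45* the start used is that of 1 transcript of the promoter table and lies inside the gene interval given above, so that the window overlaps that interval.
Mrpl10: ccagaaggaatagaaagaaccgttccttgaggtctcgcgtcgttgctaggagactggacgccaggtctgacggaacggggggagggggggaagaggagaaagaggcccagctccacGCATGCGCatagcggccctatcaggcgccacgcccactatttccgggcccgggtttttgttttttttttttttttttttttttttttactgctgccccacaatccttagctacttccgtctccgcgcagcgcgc
Mrpl9: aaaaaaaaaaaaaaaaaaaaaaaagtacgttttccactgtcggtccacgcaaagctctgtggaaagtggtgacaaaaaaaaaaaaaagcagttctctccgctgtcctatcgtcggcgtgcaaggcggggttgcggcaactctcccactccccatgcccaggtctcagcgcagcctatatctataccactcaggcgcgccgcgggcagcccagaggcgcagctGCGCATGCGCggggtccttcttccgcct
Mrpl42: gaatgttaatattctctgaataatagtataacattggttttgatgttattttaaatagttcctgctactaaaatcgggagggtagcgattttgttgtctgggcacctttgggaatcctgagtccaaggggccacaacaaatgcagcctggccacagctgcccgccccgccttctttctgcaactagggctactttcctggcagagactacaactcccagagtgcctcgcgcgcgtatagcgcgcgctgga
Mrps24: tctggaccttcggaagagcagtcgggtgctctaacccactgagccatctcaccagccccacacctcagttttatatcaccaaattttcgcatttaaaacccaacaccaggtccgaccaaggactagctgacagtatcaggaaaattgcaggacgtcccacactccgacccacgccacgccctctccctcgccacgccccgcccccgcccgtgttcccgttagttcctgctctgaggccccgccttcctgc
Mrpl45: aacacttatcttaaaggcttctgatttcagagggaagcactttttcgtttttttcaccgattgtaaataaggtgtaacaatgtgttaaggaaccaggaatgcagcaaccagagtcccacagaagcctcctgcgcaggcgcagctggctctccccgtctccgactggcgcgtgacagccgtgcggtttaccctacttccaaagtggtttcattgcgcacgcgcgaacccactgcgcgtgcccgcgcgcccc
A word in these windows is a match of letters, and binding of the factor was not measured.

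Many of the genes share their upstream region with a neighbour. In 26 of the 74 windows, 35.1%, a protein-coding gene started on the opposite strand within 1000 bases, where this held for 7.97% of coding windows. These windows belonged to 24 genes, and 1 such pair joins a large-subunit and a small-subunit gene, *Mrpl46* and *Mrps11*, with fold changes of 0.49 and 0.15. Other partners also serve mitochondria, such as *Sars2*, the mitochondrial synthetase for serine, beside *Mrps12* (-0.02 and -0.01), *Twnk*, the helicase of mitochondrial DNA, beside *Mrpl43* (-0.07 and 0.17) and *Ndufb5* of complex I beside *Mrpl47* (0.14 and -0.45). Over the 22 partners that are not themselves mitochondrial ribosomal protein genes, the median log2 fold change was 0.0075, with 11 above 0. None of them was higher and 2 were lower at an unadjusted p under 0.05, where 4.81% of all probe sets were higher and 7.58% lower. The lower partners were *Psma2*, a proteasome subunit, at -0.52 (limma unadjusted p = 0.019) beside *Mrpl32* at 0.19, and *Pnpla7*, a lysophospholipase, at -0.41 (limma unadjusted p = 0.048) beside *Mrpl41* at 0.22. The 24 genes with such a partner had a median of 0.09, and the 44 with a promoter window and no partner had a median of 0.23.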

How the data were processed

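RNA was isolated with Trizol from 8 GAS muscles and read on Affymetrix Mouse Clariom S arrays. The authors deposited log2 signals for each gene, computed by SST-RMA in the Transcriptome Analysis Console 4.0.1, which includes quantile normalization across arrays, with annotation release 36 on mm10. Such normalization removes shifts shared by all genes. The deposited table also holds the authors' group averages, fold changes, p-values and false discovery rates, which were not used.

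All 22206 probe sets were fitted with limma 3.58.1 (lmFit and eBayes, R 4.3.3), MYTHO minus scrmb, without a pairing term. The methods of the study give an eBayes ANOVA between the groups and name no pairing for the arrays. Tests were two-sided, with Benjamini-Hochberg adjustment across the whole table. The fit was tested on simulated data. Column names carry an animal number found once in each group, and the study injected opposite legs, so that the animal was used as a replicate block in an alternative. Deviations from the group means of the legs of an animal correlated at 0.0027, -0.0014, 0.135 and 0.087. The p-values measure the spread between these samples, and 4 arrays a group limit the precision. Other alternatives were quantile normalization, median centring, the upper 50% of probe sets, eBayes with trend and robust, removal of saturated probe sets, other choices of probe sets and subunits, and leaving out each array.

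The genes named were the 8 highest and the 8 lowest by fold change, those at an unadjusted p under 0.05 or without overlap between groups, those whose symbol misplaces them, and listed genes at an unadjusted p under 0.05. The stalk genes, *Rars2*, the single marker genes and the promoter partners were named after their values were seen. The genes and lists were chosen with earlier results of these data known. *Mtrfr* was not matched, and 1 of the marker lists is not reported here. Names, coordinates and promoters came from RefSeq tables of GRCm38.p6.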

Additional observations from a re-analysis of the deposited data

Results flagged for a closer look

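In 6 of 82 groups of 4 arrays, 1 array lay far from the others, by the share of the group's range taken up by its gap to the nearest array (Dixon's test at its 95% level). Chance gives about 1 in 20. Among the mitochondrial ribosomal protein genes this was *Mrps24* in the MYTHO leg of animal D (share 0.864), at 8.48 against 8.26 to 8.29 in the other MYTHO legs. Among the genes that serve the mitoribosome it was *Tsfm* in the scrmb leg of animal B (0.849), at 6.94 against 7.39 to 7.47, and *Nsun4* in the MYTHO leg of animal B (0.84), at 7.50 against at most 7.08. *Mytho* itself was higher in the MYTHO leg of animal C than in the others (0.833), at 8.80 against 8.08 to 8.20. The mean of the slow-fibre markers stood apart in the scrmb leg of animal A (0.842) and in the MYTHO leg of animal D (0.859).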

How the results depend on the processing

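Under every alternative no mitochondrial ribosomal protein gene passed an adjusted p of 0.05. *Mrpl42*, *Mrpl45*, *Mrpl9* and *Mrps24* kept an unadjusted p under 0.05 in all 14 settings, while *Mrpl38* and *Mrpl10* did so in 9. The count of higher genes, 5, ran from 3 to 9 when single arrays were left out, and that of lower genes, 1, from 1 to 3. eBayes with trend and robust gave 2 lower genes. The cause was not tested. The median fold change of the 77 genes ran from 0.0733 to 0.195 when single arrays were left out, that of the large subunit from 0.0842 to 0.208, that of the small subunit from 0.0542 to 0.182 and their difference from 0.02 to 0.055. With the animal as a replicate block the counts were 6 and 1. *Dap3* and *Chchd1*, which were not past the threshold, changed sign without the MYTHO array of animal A. With single arrays left out, *Dap3* ran from -0.131 to 0.0458 and *Chchd1* from -0.164 to 0.0325. Both median centring and quantile normalization gave 7 higher and 1 lower, with medians of 0.205 and 0.158, and trend and robust gave 6 higher. The other choices of probe sets and the removal of saturated ones left both counts at 5 and 1. Averaging over probe sets or removing saturated ones could hardly change them, since each gene had 1 probe set and none reached the ceiling. Keeping only entries that name 1 gene removed *Mrpl53* and *Mrps6*, which were not past the threshold.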
